A study of Mus musculus with 12 samples.

Results

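Mouse splenic dendritic cells (DCs) that had been cultured with memory T cells were compared with DCs cultured without any T cell, to ask what contact with memory T cells added to the DC transcriptome, the RNA of the T cells included. The members are 12 of the 12 RNA sequencing libraries: 6 from T cell cultures, set against 6 from T-cell-free cultures. In the AlloTem group (3 libraries) the DCs were cultured with effector memory T cells that recognise alloantigen and originate from the BALB/c strain. In the SynTem group (3 libraries) the T cells were effector memory cells of the DCs' own strain, C57BL/6, and the series title speaks of CD4 T cells. The T-cell-free groups were LPS (3 libraries), cultured with lipopolysaccharide, a bacterial product sensed by a Toll-like receptor, and DC only (3 libraries), cultured with nothing added. All DCs were C57BL/6 and came from spleens of mice carrying B16 melanoma cells engineered to release Flt3 ligand, which makes DCs more numerous. Lymphocytes and macrophages had been depleted with beads before culture, all cultures lasted 3 h, and the DC fraction was recovered afterwards by sorting for CD11b and CD11c. Each group weighed the same in the comparison: the mean of AlloTem and SynTem was set against the mean of LPS and DC only, on the log2 scale, in 1 model over all libraries. The T cells of the AlloTem and SynTem groups differed in strain as well as in specificity, so these cannot be told apart. Whether the replicates of a group were different animals or cultures is not stated. The p-values therefore cover the spread among the sequenced libraries and no more, and how much of that spread is technical is not known. Y-linked transcripts differed between replicates within each group, as given below.

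Memory T cells that meet DCs can act on them through surface ligands such as CD40 ligand and through secreted cytokines. Interferon gamma induces families of GTPases that defend against intracellular pathogens. Cytokines that use the common gamma or beta receptor chains signal through JAK kinases and STAT5 or STAT6, and induce the inhibitors CIS and SOCS1, which feed back on the same pathway. A mixed culture can also leave T cells or T cell RNA in the sorted fraction, and a bulk library does not say which cell a transcript came from.

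Library totals lay between 13903574 and 21861156 counts, and levels are given in CPM, the share of a library's counts scaled to a common total and adjusted for composition. The summed level of 10 defining DC markers (among them Itgax, Flt3, Zbtb46 and H2-Ab1) was 11340 to 23650 CPM. By edgeR 0 of the 10 were called as changed, with 2 at an unadjusted p under 0.05. MHC class II genes are among the 10, and the 13 listed MHC class II genes summed to 11820 to 24740 CPM. Markers of macrophages and monocytes summed to 822.5 to 1724 CPM and B cell markers to 362 to 546.5 CPM. The purity of the sorted cells was not tested. Of 8 markers of B16 cells, Tyr, Mlana, Tyrp1 and Sox10 were at 0 counts in all 12 libraries. The 8 summed to between 4.6 CPM in DC only 3 and 16.6 CPM in SynTem 3. Only 2 had enough counts to test, and 0 were called by edgeR. Of these 2, 1 had a positive value (Gpnmb, log2 fold change 1.29 ± 0.43 SE, edgeR adjusted p = 0.249). Gpnmb was at 1.84 to 9.31 CPM in the T cell cultures and 1.18 to 5.215 CPM in the T-cell-free cultures. Some libraries stood apart. The 4 Y-linked transcripts measured summed to 204, 131 and 175 CPM in AlloTem 3, SynTem 3 and SynTem 2 and to 219.6 and 209 CPM in LPS 3 and DC only 3, against 0 to 10.3 CPM in the 7 other libraries. Xist, the RNA expressed from the inactive X chromosome of female cells, was nonetheless between 138 and 455 CPM in those 5 libraries. SynTem is thus the group with 2 such libraries where the others have 1. Markers of cytotoxic and natural killer cells summed to 1553 CPM in AlloTem 1, 1198 CPM in SynTem 1 and 1595 CPM in LPS 1, against 193 to 614 CPM in the 9 other libraries. SynTem 3 stood apart on neutrophil markers, whose sums are given with the genes of other blood cells.

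Of 14413 genes tested, 162 (1.12%) were higher and 43 (0.298%) were lower in the T cell cultures than in the T-cell-free cultures (edgeR, quasi-likelihood F test, adjusted p under 0.05 by the Benjamini-Hochberg method). Together these were 205 genes, or 1.42%. The fitted log2 fold change was positive for 7202 of the genes tested. At least 2-fold were 126 of the 162 rises and 5 of the 43 falls, and the medians were 1.71 and -0.581 on the log2 scale. On the T-cell-free libraries alone 120 of the 162 would have passed the filter on low counts, against 43 of the 43 falls, so the other rises were tested only through the cultures in which they are high. All 6 T cell libraries lay above all 6 T-cell-free libraries for 83 of the 162, where 0.777% of all genes tested do so, and below them for 18 of the 43, where 0.361% do. With the batch number as a block the falls numbered 98 (0.68%). Leaving out 1 library gave between 53 and 170 rises and between 13 and 48 falls, with 53 rises and 13 falls without DC only 2. Without DC only 1 there were 64 and 13, and without LPS 2 there were 56 and 15. DC only 1 and DC only 2 were much closer to each other than any other replicates (chi-square per degree of freedom 6.14, others 26.5 to 80.7). A close pair lowers the spread that the p-values rest on, and its part in these calls was not tested. With the summed Y-linked transcripts as a covariate the counts were 300 and 103, and without SynTem 2 and SynTem 3 they were 28 and 1. The 162 and the 43 had the same direction within each of the 3 batches. They were called on these same libraries, so neither this nor the separation of the sides is further support for the calls.

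By number of calls the T cell list led the 35 gene lists, of which it is the longest. By share of members tested it was close to the STAT5 response list, which had 9 higher and 1 lower of 17. Of 35 tested genes of T cell receptor chains and T cell lineage, 19 were higher and 0 lower, beside 1.12% and 0.298% of all genes tested. Their median log2 fold change was 2.03 beside a median near 0 for all genes. Only 24 of the 35 had enough counts to pass the filter on the T-cell-free libraries alone, so a part of the list entered through the cultures where it was high. The summed level of the list was 425, 265 and 227 CPM in AlloTem and 417, 937 and 762 CPM in SynTem, against 262, 164 and 108 CPM in LPS and 134, 154 and 104 CPM in DC only. AlloTem 3 thus lay below LPS 1 on this sum, while every SynTem library lay above every T-cell-free library. In a bulk library, more T cells and more RNA per T cell cannot be told apart.

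Cd3e (ENSMUSG00000032093, chromosome 9, 44998740 to 45009627, in GRCm38), a signalling chain of the T cell receptor complex, was at 6.55, 2.93 and 3.92 CPM in AlloTem and 10.7, 47.9 and 30.4 in SynTem, against 1.26, 0.237 and 0.336 in LPS and 0, 0.0571 and 0.245 in DC only. The 6 T cell libraries did not overlap the 6 others (log2 fold change 5.44 ± 0.61 SE, edgeR adjusted p = 0.00247). Trac, the constant part of the receptor alpha chain, was at 5.32, 3.08 and 4.86 CPM in AlloTem and 10.3, 29.3 and 24.7 in SynTem, against 1.57, 0.356 and 0.392 in LPS and 0.626, 0.4 and 0.147 in DC only. It too separated the 2 sides (log2 fold change 4.16 ± 0.47 SE, edgeR adjusted p = 0.00247). Cd4, the coreceptor of helper T cells that is also found on a subset of splenic DCs, was at 12.7, 12.8 and 9.35 CPM in AlloTem and 22.5, 30.3 and 24.6 in SynTem, against 2.95, 5.11 and 1.51 in LPS and 3.5, 2.68 and 2.79 in DC only, with no overlap (log2 fold change 2.49 ± 0.25 SE, edgeR adjusted p = 0.00213). All 3 genes, with Cd3d, Cd3g, Lat and Bcl11b, stayed called whichever 1 of the 12 libraries was left out. Cd8a, the coreceptor of cytotoxic T cells, was at 2.56, 7.44 and 3.45 CPM in AlloTem and 2.23, 3.86 and 4.39 in SynTem, against 2.01, 5.76 and 4.31 in LPS and 2.88, 4.28 and 3.97 in DC only, and these ranges overlapped (log2 fold change 0.03 ± 0.33 SE, edgeR adjusted p = 0.987). Themis, which supports receptor signalling in developing T cells, had 469 counts in the T cell libraries and 1 in the T-cell-free libraries, a ratio of 452 per unit of depth with a 95% counting interval of 80.7 to 17880. Lat, an adaptor of the T cell receptor, and Bcl11b, a T cell lineage factor, rose by 3.17 and 5.28 on the log2 scale. The list held 18 calls with the batch block, 8 without SynTem 2 and SynTem 3, 8 without DC only 2 and SynTem 2, 10 with DC only as the sole control group and 9 by limma voom. Leaving out 1 library gave 10 to 20 calls, the fewest without DC only 2. The fitted difference between AlloTem and SynTem was negative for most of the list (31 of 35 members, median -1.27), but 0 of the 35 passed its test by edgeR.

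**Figure D1:**
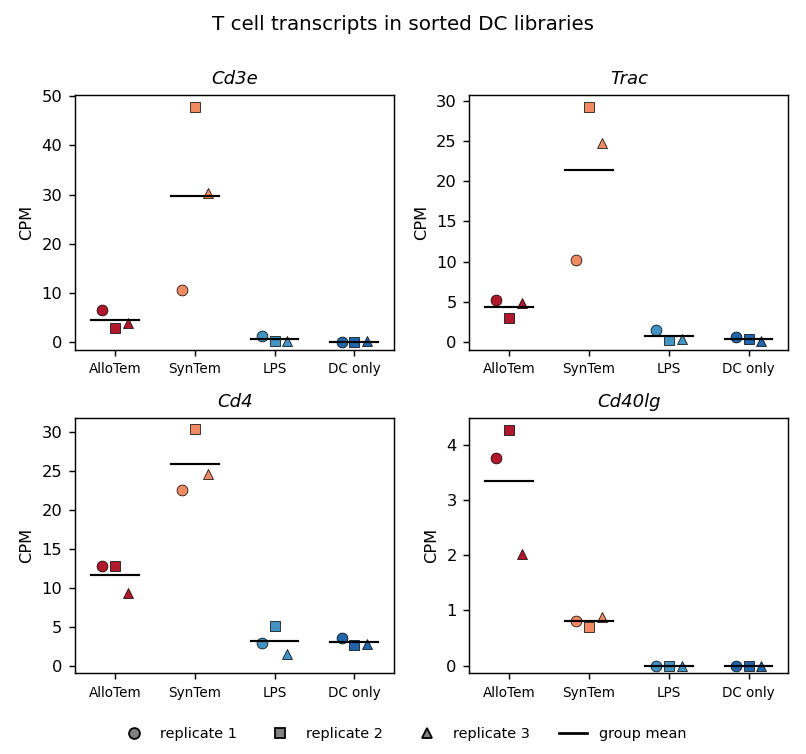
Levels of Cd3e, Trac, Cd4 and Cd40lg (vertical axes, CPM) in each library of the AlloTem, SynTem, LPS and DC only groups. Points are libraries with 1 symbol per replicate number and lines are group means. SynTem means are the highest for Cd3e, Trac and Cd4, while Cd40lg is highest in AlloTem and at 0 in all 6 T-cell-free libraries.

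Ligands and cytokines of activated T cells were scarce, and 1 of the 13 tested passed, where 1.12% of all genes tested were higher. On the T-cell-free libraries alone only 8 of the 13 would have passed the filter on low counts. The 1 that passed, Cd40lg, was not among those 8, so it was tested only through the cultures in which it is high. Cd40lg (ENSMUSG00000031132, chromosome X, 57212143 to 57224042), which encodes CD40 ligand, was at 3.75, 4.27 and 2.03 CPM in AlloTem and 0.818, 0.697 and 0.889 in SynTem, against 0, 0 and 0 in LPS and 0, 0 and 0 in DC only. It was therefore at least 72.3-fold higher in the T cell cultures, taking 3 counts over the 6 T-cell-free libraries as the limit that a count of 0 allows (edgeR adjusted p = 0.00247). Its call held in every alternative in which it had enough counts to be tested, but these use the same libraries and are no further support. Ifng, the gene of interferon gamma, was at 5.79, 1.54 and 0 CPM in AlloTem and 3.64, 1.46 and 1.13 in SynTem, against 3.46, 0.119 and 0 in LPS and 0.689, 0.971 and 0.049 in DC only and did not pass (log2 fold change 1.46 ± 1.15 SE, edgeR adjusted p = 0.735). Another gene overlaps 25.9% of its exons. Its levels overlapped between the sides, with AlloTem 3 at 0 and LPS 1 above 4 of the 6 T cell libraries. Csf2, which encodes GM-CSF, was at 3.94, 8.09 and 1.46 CPM in AlloTem and 0, 0.633 and 1.36 in SynTem, against 0.377, 0.178 and 0.28 in LPS and 0.313, 0.0571 and 0.098 in DC only (log2 fold change 3.05 ± 0.74 SE, edgeR adjusted p = 0.0868). Against the T-cell-free cultures Csf2 passed in AlloTem (log2 4.41, edgeR adjusted p = 0.0167) but not in SynTem (log2 1.70, edgeR adjusted p = 0.559), and the difference between the 2 cultures did not pass (edgeR adjusted p = 0.351). Il13, a cytokine that signals through STAT6, was at 5.13, 5.41 and 1.56 CPM in AlloTem and 0.892, 1.08 and 2.25 in SynTem, against 1.19, 0.119 and 0 in LPS and 0.188, 0.171 and 0 in DC only (log2 fold change 3.38 ± 0.81 SE, edgeR adjusted p = 0.0848). Xcl1, a chemokine of activated T cells and natural killer cells, was at 4.7, 1.64 and 0.283 CPM in AlloTem and 2.16, 1.65 and 2.43 in SynTem, against 4.02, 1.07 and 0.784 in LPS and 2.63, 2.4 and 0.196 in DC only, with no separation (log2 fold change 0.22 ± 0.70 SE, edgeR adjusted p = 0.963). Il2 was at 1.09 CPM in AlloTem 2, 0.0490 CPM in DC only 3 and 0 in the other libraries, too few counts to test. The list gave 1 to 3 calls when 1 library was left out.

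Inhibitors and other targets of cytokine receptor signalling rose in the T cell cultures. Of 17 tested genes of the STAT5 response, 9 were higher and 1 lower, beside 1.12% and 0.298% of all genes tested. Their median log2 fold change was 1.01. The 9 were Cish, Socs1, Socs3, Nfil3, Osm, Il2ra, Gadd45g, Pim2 and Pim3, and the 1 was Bcl6. The list held 4 higher calls without SynTem 2 and SynTem 3, 4 without DC only 2 and SynTem 2, 3 with 1 mean per side in place of 4 group means and 5 by limma voom. Leaving out 1 library gave 4 to 8 higher calls, the fewest without DC only 2.

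Cish (ENSMUSG00000032578, chromosome 9, 107296026 to 107302784) encodes CIS, an inhibitor that binds cytokine receptors and is itself a STAT5 target. It was at 259.8, 309 and 205 CPM in AlloTem and 8.62, 35.5 and 72.5 in SynTem, against 3.71, 3.8 and 1.79 in LPS and 2.13, 1.89 and 1.47 in DC only. Every T cell library lay above every T-cell-free library (log2 fold change 5.40 ± 0.49 SE, edgeR adjusted p = 0.0021). This was a 42.2-fold rise, called in every alternative run. AlloTem lay above SynTem in all 3 batches, but the difference between the cultures did not pass (log2 2.73, edgeR adjusted p = 0.115). Nfil3 (ENSMUSG00000056749, chromosome 13, 52967209 to 52981073), a transcription factor that type 1 DCs need to develop and that also follows cytokine signals, was at 214, 224 and 162 CPM in AlloTem and 51.6, 57.4 and 81.9 in SynTem, against 48.5, 35.4 and 31.2 in LPS and 26.5, 23.4 and 23.8 in DC only. The sides did not overlap, and Nfil3 had the smallest adjusted p among the genes described here (log2 fold change 1.88 ± 0.15 SE, edgeR adjusted p = 0.00123). It also was called in every alternative. The lowest T cell library was SynTem 1, close above LPS 1.

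Socs1 (ENSMUSG00000038037, chromosome 16, 10782240 to 10785536), an inhibitor of JAK kinases induced by interferons and by STAT5 or STAT6 cytokines, was at 91.03, 242 and 93.2 CPM in AlloTem and 32.9, 23.1 and 98.8 in SynTem, against 9.68, 7.78 and 3.75 in LPS and 12.5, 9.6 and 2.15 in DC only. The sides did not overlap (log2 fold change 3.51 ± 0.54 SE, edgeR adjusted p = 0.0141), though the call was lost without DC only 2, LPS 2 or LPS 3 (edgeR adjusted p = 0.0524 to 0.0553). It was also lost with DC only as the sole control group (edgeR adjusted p = 0.0777) and without SynTem 2 and SynTem 3 (0.0907). Socs3, the inhibitor induced by cytokines of the interleukin 6 family and many others, was at 1181, 913 and 494 CPM in AlloTem and 160.5, 67.6 and 190.4 in SynTem, against 142, 89.8 and 142 in LPS and 56.1, 53.4 and 24.5 in DC only. Its AlloTem libraries stood well above the rest, and its SynTem libraries overlapped the LPS libraries (log2 fold change 2.22 ± 0.33 SE, edgeR adjusted p = 0.012). With 1 mean per side Socs3 was not called (edgeR adjusted p = 0.138). Against the T-cell-free libraries Socs3 passed in AlloTem (log2 3.53, edgeR adjusted p = 0.00155) and not in SynTem (log2 0.90, edgeR adjusted p = 0.471), yet the difference between the cultures did not pass (edgeR adjusted p = 0.0694). Il2ra, the alpha chain of the interleukin 2 receptor, which activated T cells and mature DCs both carry, was at 38.1, 49.5 and 13.8 CPM in AlloTem and 20.8, 66.9 and 49.5 in SynTem, against 16.97, 15.6 and 7.67 in LPS and 5.13, 6.11 and 6.47 in DC only. AlloTem 3 lay below 2 of the LPS libraries (log2 fold change 2.14 ± 0.37 SE, edgeR adjusted p = 0.0227), and with 1 library left out it stayed called only without AlloTem 2, AlloTem 3, LPS 1, SynTem 1 or SynTem 2 (otherwise edgeR adjusted p = 0.0501 to 0.0791). Il2ra and the summed T cell list were both highest in SynTem 2 but did not keep the same order elsewhere. AlloTem 2 and SynTem 3 both had 49.5 CPM of Il2ra, with list sums of 265 and 762 CPM. The part of T cell RNA in the Il2ra result was not tested. Gadd45g, a stress-response gene, rose by 1.80 on the log2 scale, and the kinase genes Pim2 and Pim3 by 1.01 and 0.51. Gadd45g lost its call without DC only 2, LPS 2 or LPS 3 (edgeR adjusted p = 0.0525 to 0.0562), Pim2 unless the library left out was AlloTem 1 or SynTem 1 (0.0534 to 0.129) and Pim3 unless it was AlloTem 1, LPS 1 or SynTem 2 (0.0622 to 0.107). Socs2, another STAT5 target, did not pass (edgeR adjusted p = 0.132).

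**Figure D2:**
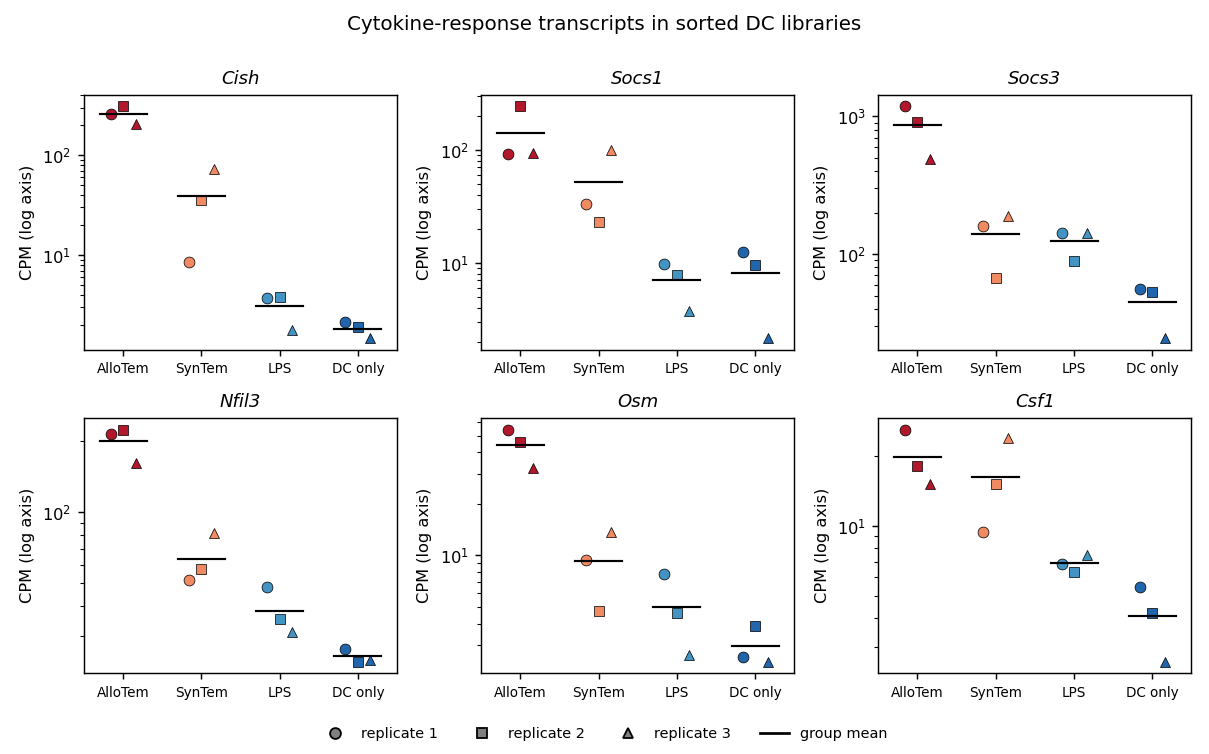
Levels of Cish, Socs1, Socs3, Nfil3, Osm and Csf1 (vertical axes, CPM on a log scale) in each library of the 4 groups. Points are libraries and lines are group means. AlloTem libraries are the highest for Cish, Nfil3, Socs3 and Osm, and SynTem means lie between the AlloTem mean and the T-cell-free means for Cish, Nfil3 and Socs1.

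The promoters of Cish and Socs1 are shown because they head the cytokine inhibitors and carry different motifs. Windows of 300 bases, 250 before and 50 after the start of transcription, were taken from RefSeq (GRCm38.p6). They were searched on both strands for TTCNNNGAA, the core of a STAT site, and for a pair of GAAA with 2 bases between them, the core of an interferon-stimulated response element. Of 32851 such windows in RefSeq, 8.3% held the first and 3.44% the second. Counted by gene, with a match in any of its windows, the shares were 9.55% and 3.99% of 27025 genes. Of the 10 called STAT5 list genes, 9 had a window, of which 3 held TTCNNNGAA and 1 held the GAAA pair. Matches are in capitals. The Cish window (chr9:107296409-107296708, plus strand) holds a pair of STAT motifs just after the start, and the Socs1 window (chr16:10785487-10785786, minus strand) holds 2 overlapping interferon motifs and no STAT motif.
Cish: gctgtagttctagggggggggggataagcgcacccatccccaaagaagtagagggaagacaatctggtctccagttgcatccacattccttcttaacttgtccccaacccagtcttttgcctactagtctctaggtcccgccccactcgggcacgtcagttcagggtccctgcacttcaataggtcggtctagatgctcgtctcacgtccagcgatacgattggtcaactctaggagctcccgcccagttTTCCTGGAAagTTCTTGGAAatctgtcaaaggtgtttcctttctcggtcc
Socs1: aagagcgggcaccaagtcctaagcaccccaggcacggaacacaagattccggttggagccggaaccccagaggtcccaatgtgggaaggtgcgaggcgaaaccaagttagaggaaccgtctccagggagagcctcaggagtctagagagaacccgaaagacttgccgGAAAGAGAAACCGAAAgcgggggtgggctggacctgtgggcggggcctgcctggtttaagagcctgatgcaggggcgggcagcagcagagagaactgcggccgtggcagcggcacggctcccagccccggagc
A match is a string of letters and not evidence of binding.

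Among cytokines that DCs themselves can make, Osm, Lif and Csf1 rose. Of 16 tested inflammatory cytokines these 3 were higher and 0 lower, beside 1.12% and 0.298% of all genes tested. Of the 16, 13 had a positive value and 7 an unadjusted p under 0.05, and the median log2 fold change was 0.94. Osm, which encodes oncostatin M of the interleukin 6 family, was at 54.1, 45.6 and 32.5 CPM in AlloTem and 9.37, 4.75 and 13.6 in SynTem, against 7.73, 4.63 and 2.63 in LPS and 2.57, 3.88 and 2.4 in DC only, high in AlloTem, with SynTem 2 within the T-cell-free range (log2 fold change 2.40 ± 0.32 SE, edgeR adjusted p = 0.00698). Its call was lost with 1 mean per side (edgeR adjusted p = 0.0578). Lif, of the same family, was at 12.1, 13.3 and 4.67 CPM in AlloTem and 0.669, 2.15 and 7.83 in SynTem, against 1.26, 0.89 and 1.01 in LPS and 0.25, 0 and 0.343 in DC only, with SynTem 1 within the T-cell-free range (log2 fold change 3.67 ± 0.65 SE, edgeR adjusted p = 0.0235). It lost its call in 6 of the 12 fits, those without AlloTem 1, AlloTem 2, DC only 1, DC only 2, LPS 2 or LPS 3 (edgeR adjusted p = 0.0527 to 0.0817). Csf1, the macrophage growth factor, was at 26.02, 18.2 and 15.1 CPM in AlloTem and 9.44, 15.2 and 24.1 in SynTem, against 6.85, 6.29 and 7.5 in LPS and 5.45, 4.23 and 2.6 in DC only, without overlap (log2 fold change 1.76 ± 0.25 SE, edgeR adjusted p = 0.00985). Csf1 was not called without SynTem 2 and SynTem 3 (edgeR adjusted p = 0.0795) or without DC only 2 and SynTem 2 (edgeR adjusted p = 0.0821).

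Il6, Il1b, Tnf and Il12b, classical inflammatory cytokines, did not pass with both cultures together. Il6 was at 36.6, 40.3 and 22.6 CPM in AlloTem and 4.61, 2.79 and 9.31 in SynTem, against 20.6, 14.01 and 9.3 in LPS and 5.13, 4.86 and 2.01 in DC only: AlloTem lay above every other library, and the SynTem mean was below the LPS mean (log2 fold change 0.83 ± 0.34 SE, edgeR adjusted p = 0.376). Against the T-cell-free cultures Il6 passed in AlloTem (log2 2.12, edgeR adjusted p = 0.0193) but not in SynTem (log2 -0.45, edgeR adjusted p = 0.767), and the difference between the 2 cultures did not pass (edgeR adjusted p = 0.0858). Il1b was at 1044, 1060.0 and 453 CPM in AlloTem and 439.7, 87.1 and 97.6 in SynTem, against 971, 743 and 432 in LPS and 295, 300.0 and 115 in DC only, where SynTem 2 and SynTem 3 were the lowest of the 12 libraries (log2 fold change 0.03 ± 0.45 SE, edgeR adjusted p = 0.991). Tnf was at 142, 125 and 59.6 CPM in AlloTem and 109, 17.7 and 84.2 in SynTem, against 276, 144 and 159 in LPS and 105, 93.4 and 30.4 in DC only (log2 fold change -0.47 ± 0.45 SE, edgeR adjusted p = 0.799). Il12b, the shared subunit of interleukins 12 and 23, was at 63.9, 35.6 and 9.91 CPM in AlloTem and 32.3, 8.3 and 3.32 in SynTem, against 29.7, 18.2 and 12.04 in LPS and 4.19, 3.6 and 4.56 in DC only (log2 fold change 1.34 ± 0.57 SE, edgeR adjusted p = 0.402). Each of these 4 overlapped between the sides.

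Irf4 and the early gene Ier3 were higher in AlloTem than in SynTem when that difference was tested (log2 1.83 and 2.72, edgeR adjusted p = 0.00276 and 0.00456). Irf4 (ENSMUSG00000021356, chromosome 13, 30749226 to 30766976), a factor of type 2 DCs that cytokines and antigen receptors induce, was at 358, 477 and 316 CPM in AlloTem and 101, 121 and 102 in SynTem, against 76.2, 93.5 and 78.9 in LPS and 111, 102 and 88.96 in DC only. AlloTem lay apart from all other libraries, and SynTem overlapped DC only (log2 fold change 1.16 ± 0.11 SE, edgeR adjusted p = 0.0021). Ier3, an early response gene that modulates cell death, was at 287, 246 and 289.9 CPM in AlloTem and 28.2, 46.9 and 49.4 in SynTem, against 52.1, 50.6 and 85.6 in LPS and 34.8, 31.98 and 22.4 in DC only, again with AlloTem alone apart and with SynTem within the T-cell-free range (log2 fold change 1.30 ± 0.18 SE, edgeR adjusted p = 0.00944). Both calls came from AlloTem: log2 2.07 and 2.67 against the T-cell-free cultures (edgeR adjusted p = 5.65e-05 and 0.000259), where SynTem gave 0.24 and -0.06 (edgeR adjusted p = 0.586 and 0.959). With 1 mean per side neither was called (0.141 and 0.268), and Ier3 also lost its call without SynTem 2 and SynTem 3 (0.1) or without DC only 2 and SynTem 2 (0.0756).

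Id1, an inhibitor of helix-loop-helix factors that is a common target of BMP signals, was at 56.9, 31.9 and 28.99 CPM in AlloTem and 7.95, 2.66 and 11.4 in SynTem, against 3.39, 1.6 and 2.02 in LPS and 1.06, 0.857 and 0.588 in DC only. SynTem 2 lay just below LPS 1 (log2 fold change 3.60 ± 0.38 SE, edgeR adjusted p = 0.00247), and Id1 was called in every alternative. Against the T-cell-free libraries it gave log2 4.81 in AlloTem (edgeR adjusted p = 0.000424) and 2.40 in SynTem (edgeR adjusted p = 0.0348). Fosl2, a subunit of AP-1, was at 272, 241 and 147 CPM in AlloTem and 121, 68.5 and 90.4 in SynTem, against 84.01, 49.7 and 42.01 in LPS and 44.7, 41.6 and 36.9 in DC only, with SynTem 2 below LPS 1 (log2 fold change 1.55 ± 0.22 SE, edgeR adjusted p = 0.00942), and lost its call with 1 mean per side (0.0523). Egr2, another early transcription factor, rose by 2.43 on the log2 scale and lost its call without DC only 2, LPS 2, LPS 3 or SynTem 3 (edgeR adjusted p = 0.0524 to 0.0726). Epas1, which encodes the hypoxia factor HIF-2 alpha, was at 8.79, 2.78 and 6.99 CPM in AlloTem and 1.34, 9.37 and 7.41 in SynTem, against 0.817, 0.534 and 0.616 in LPS and 0.25, 0.286 and 0.735 in DC only, at low levels and with no overlap (log2 fold change 3.51 ± 0.51 SE, edgeR adjusted p = 0.0106). Its call was lost without SynTem 2 and SynTem 3 (edgeR adjusted p = 0.0959), without DC only 2 and SynTem 2 (edgeR adjusted p = 0.0873) and by limma voom (0.108). Of the 27 tested immediate early genes 3 were higher (Egr2, Fosl2 and Ier3) and 0 lower, beside 1.12% and 0.298% of all genes tested. Their median log2 fold change was 0.10.

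Of 17 tested genes of the STAT6 response, 7 were higher and 0 lower (median log2 fold change 0.92), beside 1.12% and 0.298% of all genes tested. The 7 were Ccl17, Cish, Socs1, Irf4, Egr2, Pdcd1lg2 and Clec10a, of which Cish and Socs1 are also on the STAT5 list. Ccl17, the chemokine ligand of CCR4, was at 72.7, 190.0 and 66.05 CPM in AlloTem and 0.52, 1.77 and 2.49 in SynTem, against 0.377, 0.237 and 0.056 in LPS and 0, 0.343 and 0 in DC only. Every T cell library was above every T-cell-free library, but SynTem stayed at or below 2.49 CPM (log2 fold change 6.35 ± 0.65 SE, edgeR adjusted p = 0.00247). Ccl17 was not called without SynTem 2 and SynTem 3 (edgeR adjusted p = 0.174) or by limma voom (0.108). Ccl22, which binds the same receptor, was at 139, 423 and 46.5 CPM in AlloTem and 21.4, 12.9 and 11.5 in SynTem, against 59.3, 161 and 43.2 in LPS and 49.1, 50.4 and 14.7 in DC only, with SynTem below all T-cell-free libraries except DC only 3 (log2 fold change -0.06 ± 0.54 SE, edgeR adjusted p = 0.987). Clec10a, a lectin of type 2 DCs, was at 47.9, 52.7 and 47.8 CPM in AlloTem and 28.5, 26.5 and 25.02 in SynTem, against 23.9, 13.2 and 21.9 in LPS and 14.5, 15.02 and 26.9 in DC only (log2 fold change 0.91 ± 0.18 SE, edgeR adjusted p = 0.0374). AlloTem was above all other libraries and SynTem reached into the T-cell-free range, and with 1 library left out it stayed called only without DC only 3 or LPS 1 (otherwise edgeR adjusted p = 0.0584 to 0.108). The list held 2 calls without SynTem 2 and SynTem 3, 3 without DC only 2 and SynTem 2, 3 with 1 mean per side and 4 with DC only as the sole control group. It held 3 to 8 when 1 library was left out.

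Several GTPases induced by interferon gamma rose in the T cell cultures. Of 31 tested genes of the interferon gamma response, 11 were higher and 0 lower, beside 1.12% and 0.298% of all genes tested. Of the 31, 23 had an unadjusted p under 0.05 (median log2 fold change 1.73). In 11 of the 31 all 6 T cell libraries were above all 6 others, where 0.777% of all genes tested were. These are not the same 11, since the called Cd274 and Gm4951 overlapped. The called members were the guanylate-binding proteins Gbp2, Gbp4, Gbp7 and Gbp10, the immunity-related GTPases Igtp, Irgm2, Iigp1 and Tgtp1, the GTPase-like Gm4951, and Socs1 and Cd274. Of 28 tested genes of the type I interferon response 0 were called by edgeR, with 1 at an unadjusted p under 0.05 and a median log2 fold change of -0.26. That median was not uniform: within batches 1 to 3 it was -0.305, -0.614 and 1.36. The difference between these 2 lists was not tested.

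Igtp (ENSMUSG00000078853, chromosome 11, 58199556 to 58207591), which encodes IRGM3 and acts on pathogen vacuoles, was at 45.5, 108 and 42.9 CPM in AlloTem and 118, 80.5 and 161 in SynTem, against 16.3, 22.02 and 5.43 in LPS and 22.9, 21.4 and 12.2 in DC only. The sides did not overlap, and AlloTem 3 was the lowest T cell library (log2 fold change 2.42 ± 0.38 SE, edgeR adjusted p = 0.0146). Its call was lost without DC only 2 (edgeR adjusted p = 0.0553), with DC only as the sole control group (0.0914) and without SynTem 2 and SynTem 3 (0.116). Irgm2, of the same family, was at 52.3, 113 and 48.8 CPM in AlloTem and 139, 61.6 and 143 in SynTem, against 18.4, 21.2 and 12.4 in LPS and 29.04, 32.1 and 13.8 in DC only. It kept its separation and its call whichever 1 library was left out (log2 fold change 2.12 ± 0.32 SE, edgeR adjusted p = 0.0132), but not with DC only as the sole control group (0.0943) or without SynTem 2 and SynTem 3 (0.0624). Tgtp1 was at 33.3, 194 and 25.1 CPM in AlloTem and 63.3, 60.04 and 119 in SynTem, against 5.78, 18.5 and 5.21 in LPS and 14.7, 16.7 and 8.13 in DC only (log2 fold change 2.86 ± 0.57 SE, edgeR adjusted p = 0.0418). Its sides did not overlap either, but with 1 library left out it stayed called only without AlloTem 1, AlloTem 2 or AlloTem 3 (otherwise edgeR adjusted p = 0.0601 to 0.127). Reads may have been split between it and the near-identical Tgtp2. Tgtp2 was at 73.5, 221 and 35.5 CPM in AlloTem and 242, 71.3 and 238 in SynTem, against 44.9, 81.7 and 8.01 in LPS and 88.8, 99.4 and 12.6 in DC only and was not called (log2 fold change 1.38 ± 0.68 SE, edgeR adjusted p = 0.504). Gbp7 was at 48.01, 75.3 and 61.1 CPM in AlloTem and 61.3, 41.8 and 186 in SynTem, against 17.9, 17.6 and 12.9 in LPS and 22.5, 19.1 and 7.25 in DC only (log2 fold change 2.25 ± 0.39 SE, edgeR adjusted p = 0.0238). Gbp2 was at 54.6, 101 and 68.8 CPM in AlloTem and 122, 94.5 and 295 in SynTem, against 35.8, 46.1 and 43.3 in LPS and 44.3, 43.8 and 27.5 in DC only (log2 fold change 1.496 ± 0.28 SE, edgeR adjusted p = 0.0343). Both separated the sides, with SynTem 3 the highest, but neither was called with the batch block (edgeR adjusted p = 0.0688 and 0.0669). Gbp7 lost its call without AlloTem 2, DC only 1, DC only 2, LPS 2 or LPS 3 (0.0574 to 0.079), and Gbp2 unless the library left out was AlloTem 1, SynTem 1, SynTem 2 or SynTem 3 (0.0581 to 0.0936).

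Iigp1, which inserts into parasite vacuoles, was at 6.51, 19.4 and 6.56 CPM in AlloTem and 15.8, 22.4 and 117 in SynTem, against 0.251, 1.66 and 0.392 in LPS and 1.5, 2.57 and 0.392 in DC only, without overlap and with SynTem 3 far above the rest (log2 fold change 4.46 ± 0.73 SE, edgeR adjusted p = 0.019). It lost its call without DC only 1, DC only 2 or LPS 3 (edgeR adjusted p = 0.0552 to 0.0705). Gbp10 rose by 3.97 on the log2 scale, but 46.3% of its exons overlap another gene on the same strand and its relatives are close in sequence, so its counts are uncertain. Gbp4 rose by 1.73 and Gm4951 by 3.90, and both depended on single libraries. With 1 left out, Gbp4 stayed called only without AlloTem 3, LPS 1 or SynTem 1 (otherwise edgeR adjusted p = 0.0556 to 0.109), and Gm4951 only without SynTem 1 (0.0515 to 0.133). Cxcl9 and Cxcl10, interferon gamma-induced ligands of CXCR3, did not pass. Cxcl10 was at 162, 595 and 74.8 CPM in AlloTem and 168, 28.4 and 1422 in SynTem, against 96.9, 114 and 49.96 in LPS and between 7.59 and 105 in DC only (log2 fold change 2.30 ± 0.93 SE, edgeR adjusted p = 0.376). SynTem 2 was below all T-cell-free libraries except DC only 3, while SynTem 3 was the highest of all. Cxcl9 was likewise highest in AlloTem 2 and SynTem 3, at 553 and 517 CPM, and SynTem 2 was at 19.4 CPM (log2 fold change 2.74 ± 0.97 SE, edgeR adjusted p = 0.292). Ciita, the regulator of MHC class II genes, was at 247, 455 and 327 CPM in AlloTem and 273, 369 and 308 in SynTem, against 206, 370.5 and 329 in LPS and 316, 289.8 and 410.1 in DC only (log2 fold change 0.04 ± 0.18 SE, edgeR adjusted p = 0.973). Its ranges overlapped between the sides.

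The interferon gamma list depended on the choice of libraries. It held 11 calls in the model above, 10 with the batch block, 8 with the block and without DC only 2 and SynTem 2, 2 with the same libraries left out and no block, 1 with DC only as the sole control group, and 0 of 33 without SynTem 2 and SynTem 3. Leaving out 1 library gave 2 to 11 calls, the fewest without DC only 2. The median log2 fold change was 1.51 to 2.15 over all alternatives other than single libraries left out. Within batches the medians were 1.06, 1.65 and 2.57 in batches 1 to 3.

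**Figure D3:**
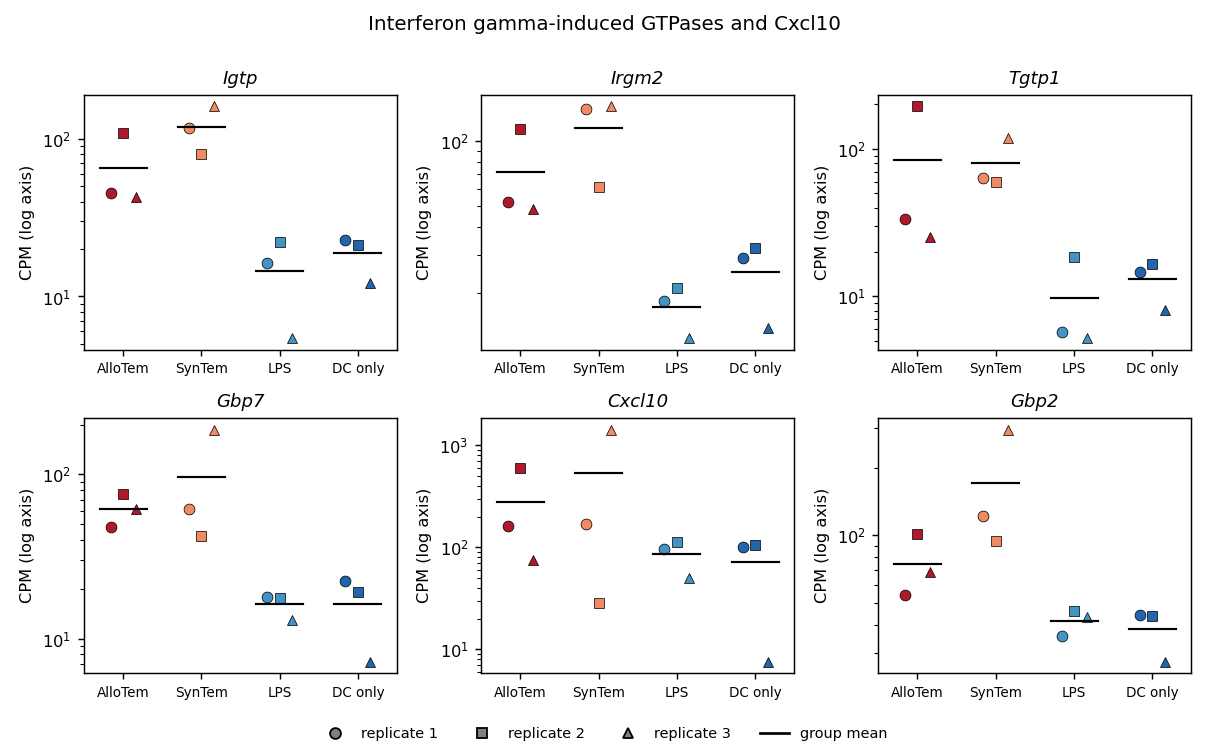
Levels of Igtp, Irgm2, Tgtp1, Gbp7, Cxcl10 and Gbp2 (vertical axes, CPM on a log scale) in each library of the 4 groups, with lines at the group means. The 6 T cell libraries lie above the 6 others for the 5 GTPase genes and overlap them for Cxcl10.

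A stretch of 30 bases is shown for Igtp, Irgm2 and Tgtp1 because in these promoters both motifs stand side by side. Capitals mark TTCNNNGAA and, 2 bases further on, the GAAA pair with the bases inside it. The first motif begins 45, 75 and 88 bases before the RefSeq start of Igtp, Irgm2 and Tgtp1 (GRCm38.p6). The stretches lie at chr11:58199502-58199531, plus strand, at chr11:58214893-58214922, plus strand and at chr11:48992314-48992343, minus strand.
Igtp: actagccatTTCTAGGAActGAAACTGAAA
Irgm2: actagccatTTCCAGGAActGAAACTGAAA
Tgtp1: actagccatTTCCAGGAAtcGAAACTGAAA
Igtp and Irgm2 are identical at 29 of the 30 bases, Igtp and Tgtp1 at 27, and Irgm2 and Tgtp1 at 28. Of the 11 called interferon gamma genes 7 had a RefSeq window, of which 4 held TTCNNNGAA and 6 held the GAAA pair. Of all genes with a window 9.55% and 3.99% did.
The Gbp7 window (chr3:142530086-142530385, plus strand) holds 2 STAT motifs and 1 interferon motif further apart, the last on the reverse strand.
Gbp7: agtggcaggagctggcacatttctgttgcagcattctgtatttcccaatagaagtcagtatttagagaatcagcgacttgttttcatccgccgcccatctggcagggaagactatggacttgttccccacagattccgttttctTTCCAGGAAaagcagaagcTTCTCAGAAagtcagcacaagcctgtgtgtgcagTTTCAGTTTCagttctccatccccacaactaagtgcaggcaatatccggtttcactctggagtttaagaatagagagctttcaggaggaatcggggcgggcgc
The members were chosen for their response to interferon gamma, for which such motifs are known, so these matches describe the genes and test nothing.

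The called genes of costimulation and maturation were ligands of PD-1 and ICOS. Of 28 tested, 2 were higher and 1 lower, where 1.12% and 0.298% of all genes tested were. With the batch block the counts were 4 and 2. An unadjusted p under 0.05 was found for 7, and the median log2 fold change was 0.22. Against the T-cell-free libraries 23 of the 28 were positive in AlloTem (median 0.85) and 12 in SynTem (median -0.115). This difference between the list medians was not tested. Cd274, which encodes the PD-1 ligand PD-L1, was at 506, 573 and 156 CPM in AlloTem and 222, 64.5 and 145 in SynTem, against 105, 84.7 and 36.2 in LPS and 56.6, 58.9 and 30.5 in DC only. AlloTem was high while SynTem overlapped LPS, and the call is marginal (log2 fold change 2.01 ± 0.42 SE, edgeR adjusted p = 0.0491): with 1 library left out it held only without AlloTem 3 or SynTem 2 (otherwise edgeR adjusted p = 0.0644 to 0.128). Another gene on the opposite strand overlaps 14.1% of the Cd274 exons and the strand setting is not known here. Pdcd1lg2, the gene of the second PD-1 ligand, was at 5.79, 16.7 and 5.62 CPM in AlloTem and 2.38, 3.17 and 3.02 in SynTem, against 1.89, 1.13 and 1.01 in LPS and 1.25, 1.83 and 1.47 in DC only, low but with no overlap (log2 fold change 1.86 ± 0.31 SE, edgeR adjusted p = 0.0194). It lost its call without DC only 1, DC only 2, LPS 2, LPS 3 or SynTem 3 (edgeR adjusted p = 0.0546 to 0.07). Icosl (ENSMUSG00000000732, chromosome 10, 78069302 to 78083913), the ligand of the T cell costimulator ICOS, was at 345, 503 and 322 CPM in AlloTem and 302, 277 and 240.4 in SynTem, against 506, 748 and 639.5 in LPS and 518, 516 and 362 in DC only. It was the member that fell (log2 fold change -0.73 ± 0.15 SE, edgeR adjusted p = 0.0388), and SynTem lay below every T-cell-free library while AlloTem 2 did not. The fall of Icosl was lost in 9 of the 12 fits that left out 1 library, those without LPS 1, DC only 3 or AlloTem 2 being the ones that kept it (edgeR adjusted p = 0.0522 to 0.12). Icos itself, a T cell gene, rose by 2.30 on the log2 scale and kept its call in all 12.

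Cd40, the receptor of CD40 ligand, was at 156, 396 and 115 CPM in AlloTem and 71.6, 39.6 and 102 in SynTem, against 117, 184 and 136 in LPS and 133, 114 and 50.1 in DC only (log2 fold change 0.07 ± 0.36 SE, edgeR adjusted p = 0.98). AlloTem 2 was the highest library and SynTem 2 the lowest. Cd80 was at 81.7, 179 and 54.7 CPM in AlloTem and 40.2, 32.9 and 28.9 in SynTem, against 51.4, 94.98 and 61.2 in LPS and 38.3, 38.5 and 35.8 in DC only (log2 fold change 0.23 ± 0.26 SE, edgeR adjusted p = 0.851). Cd86 was at 137, 249.7 and 105 CPM in AlloTem and 143, 100.5 and 89.3 in SynTem, against 114, 174 and 117 in LPS and 100.1, 94.9 and 107 in DC only (log2 fold change 0.21 ± 0.21 SE, edgeR adjusted p = 0.819). These are the ligands of CD28, and AlloTem 2 was again the highest in both. Ccr7, the receptor that guides mature DCs to lymph nodes, was at 500.1, 331 and 152 CPM in AlloTem and 464, 160.0 and 118 in SynTem, against 464, 446 and 206 in LPS and 155, 160.3 and 142 in DC only (log2 fold change 0.26 ± 0.38 SE, edgeR adjusted p = 0.899). All 4 overlapped between the sides. Among 24 tested targets of CD40 and TNF receptors, 0 were called by edgeR (4 at an unadjusted p under 0.05, median log2 fold change -0.06). The medians were 0.26 for AlloTem and -0.51 for SynTem against the same T-cell-free libraries.

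A few rises were of genes known from other blood cells. Gzmc, a granzyme of activated cytotoxic lymphocytes, was at 6.17, 0.744 and 6.42 CPM in AlloTem and 0.372, 28.4 and 23.8 in SynTem, against 0.44, 0 and 0.392 in LPS and 0.0626, 0 and 0.196 in DC only (log2 fold change 5.73 ± 1.11 SE, edgeR adjusted p = 0.0377), and SynTem 1 lay within the T-cell-free range. Cpa3, a protease of mast cells and basophils, was at 47.3, 4.57 and 23.4 CPM in AlloTem and 0.372, 0.887 and 2.96 in SynTem, against 0.628, 0.712 and 0.224 in LPS and 0.313, 0.571 and 0.147 in DC only (log2 fold change 3.82 ± 0.70 SE, edgeR adjusted p = 0.0287), highest in AlloTem 1 and AlloTem 3. Cyp11a1, the enzyme that starts steroid synthesis and is also made by some activated T cells and mast cells, was at 30.6, 7.24 and 15.5 CPM in AlloTem and 1.19, 3.29 and 7.88 in SynTem, against 1.82, 0.297 and 0.112 in LPS and 0.814, 0.743 and 0.098 in DC only (log2 fold change 3.76 ± 0.74 SE, edgeR adjusted p = 0.0388). Neither Gzmc nor Cpa3 was called with the batch block (edgeR adjusted p = 0.0715 and 0.0666). With 1 library left out, Gzmc stayed called only without AlloTem 2 or SynTem 1 (otherwise edgeR adjusted p = 0.069 to 0.127). Cpa3 did so only without AlloTem 2, AlloTem 3, SynTem 1 or SynTem 2 (0.0522 to 0.1), and Cyp11a1 only without AlloTem 2, LPS 1 or SynTem 1 (0.0641 to 0.112). Of 17 tested markers of cytotoxic and natural killer cells, 1 was higher (Gzmc), where 1.12% of all genes tested were, and 0 were with the batch block. A positive value was found for 12 and an unadjusted p under 0.05 for 1 (median log2 fold change 0.46). Their sum was highest in LPS 1 (1595 CPM), AlloTem 1 (1553 CPM) and SynTem 1 (1198 CPM), while Gzmc was highest in SynTem 2 and SynTem 3. Of 9 tested basophil and mast cell markers, 1 was higher (Cpa3), where 1.12% of all genes tested were, and 6 had an unadjusted p under 0.05. On the T-cell-free libraries alone 6 of the 9 would have passed the filter. The median log2 fold change of that list was 2.16, and its sum was 329 to 434 CPM in AlloTem and 239 to 303 CPM in SynTem, against 214 to 471 CPM in LPS and 258 to 316 CPM in DC only. Of 14 neutrophil markers 0 were called by edgeR (1 at an unadjusted p under 0.05), though all 14 fitted values were positive, with sums of 117.0 to 334 CPM in AlloTem and 74.5 to 1033 CPM in SynTem, against 114 to 354 CPM in LPS and 53.6 to 129 CPM in DC only. SynTem 3 held the 1033 CPM. The part of these cells in the rises listed here was not tested.

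Falls were fewer and smaller than rises, and most passed in AlloTem. Of the 43 genes, 33 were lower in AlloTem than in SynTem by their fitted level, and 30 passed in AlloTem alone, 3 in SynTem alone, 3 in both and 7 in neither. Kcne3, an ancillary subunit of potassium channels, was at 2.52, 2.28 and 2.83 CPM in AlloTem and 5.87, 3.42 and 2.61 in SynTem, against 7.92, 7.48 and 7.11 in LPS and 9.45, 9.94 and 6.61 in DC only, with no overlap (log2 fold change -1.34 ± 0.20 SE, edgeR adjusted p = 0.0114). Bahcc1, which encodes a chromatin protein with a BAH domain, was at 82.1, 71.0 and 78.3 CPM in AlloTem and 125, 88.9 and 86.8 in SynTem, against 157, 181 and 165 in LPS and 180.5, 158 and 115 in DC only (log2 fold change -0.86 ± 0.12 SE, edgeR adjusted p = 0.01). Only SynTem 1 reached the T-cell-free range. Smim5, a small membrane protein, was at 13.1, 9.78 and 10.5 CPM in AlloTem and 7.66, 9.69 and 9.49 in SynTem, against 15.1, 16.9 and 17.2 in LPS and 22.2, 19.5 and 14.8 in DC only (log2 fold change -0.82 ± 0.13 SE, edgeR adjusted p = 0.0131). Zfp296, a zinc finger factor, was at 24.2, 19.9 and 26.4 CPM in AlloTem and 22.4, 20.3 and 20.04 in SynTem, against 32.2, 38.6 and 44.1 in LPS and 35.2, 35.1 and 29.5 in DC only (log2 fold change -0.69 ± 0.10 SE, edgeR adjusted p = 0.0113). Neither overlapped between the sides. The Zfp296 exons overlap Gemin7 over 12.9% of their length. These 4 stayed called whichever 1 library was left out, but not without SynTem 2 and SynTem 3 (edgeR adjusted p = 0.0923, 0.121, 0.0923 and 0.158). Without DC only 2 and SynTem 2 they were not called either (0.102, 0.0873, 0.0885 and 0.101).

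Bcl6 (ENSMUSG00000022508, chromosome 16, 23965052 to 23988852), a transcriptional repressor that STAT5 signals are known to lower, was at 104, 88.5 and 115 CPM in AlloTem and 241, 149 and 128 in SynTem, against 253, 206 and 198 in LPS and 222, 229.8 and 220.2 in DC only. AlloTem lay below every T-cell-free library and SynTem 1 lay among them (log2 fold change -0.73 ± 0.15 SE, edgeR adjusted p = 0.0379). Sgk1, a kinase induced by glucocorticoids and salt, was at 49.9, 37.1 and 41.3 CPM in AlloTem and 137, 82.5 and 72.4 in SynTem, against 158, 98.2 and 109 in LPS and 106, 108 and 102 in DC only (log2 fold change -0.81 ± 0.17 SE, edgeR adjusted p = 0.0467), low in AlloTem. Snai1, a repressor known from epithelial cells, was at 6.55, 6.9 and 5.9 CPM in AlloTem and 4.31, 5.19 and 3.02 in SynTem, against 14.2, 28.3 and 13.8 in LPS and 12.96, 11.1 and 4.51 in DC only (log2 fold change -1.36 ± 0.28 SE, edgeR adjusted p = 0.0429), where DC only 3 lay within the T cell range. With 1 library left out, Bcl6 stayed called only without AlloTem 3 or SynTem 1 (otherwise edgeR adjusted p = 0.0672 to 0.106). Sgk1 did so only without SynTem 1 (0.067 to 0.126) and Snai1 only without DC only 3 or LPS 1 (0.0646 to 0.13). Stbd1, which tethers glycogen, had a log2 fold change of -1.12, Oaf of -0.77 and Plxdc1 of -0.72. Snx22, of which 28.5% of the exons overlap Ppib, had -0.99. With 1 library left out, Stbd1 held without AlloTem 1, AlloTem 2, AlloTem 3, DC only 3, LPS 1 or SynTem 1, Oaf without AlloTem 2, AlloTem 3, DC only 3, LPS 1, LPS 3 or SynTem 1, Plxdc1 without AlloTem 3, DC only 3, LPS 1 or SynTem 2 and Snx22 without LPS 1 or SynTem 2 (otherwise edgeR adjusted p = 0.0599 to 0.0707, 0.0534 to 0.0735, 0.0506 to 0.0893 and 0.0522 to 0.119). Bbc3, a cell death activator, and Herpud1, of the endoplasmic reticulum stress response, had log2 fold changes of -0.63 each (edgeR adjusted p = 0.0419 and 0.0424). In the other direction Bcl2, an inhibitor of cell death, rose by 0.54 and Xbp1, a stress-response factor, by 0.49, both with no overlap (edgeR adjusted p = 0.0279 and 0.0229). Egln3, an oxygen-sensing hydroxylase, rose by 1.86 (edgeR adjusted p = 0.0409). With 1 library left out, Bbc3 held only without AlloTem 2 or AlloTem 3, Herpud1 without AlloTem 2, DC only 3 or SynTem 1 and Egln3 without DC only 3 or SynTem 1 (otherwise edgeR adjusted p = 0.057 to 0.126, 0.0644 to 0.132 and 0.0536 to 0.126). Bcl2 held without AlloTem 3, LPS 1 or SynTem 1 and Xbp1 without AlloTem 2, AlloTem 3, DC only 3, LPS 1 or SynTem 1 (otherwise 0.0507 to 0.0838 and 0.0523 to 0.0792).

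Several other gene groups showed no call. None of 13 tested MHC class II genes, 18 MHC class I genes, 14 markers of type 1 DCs, 22 cell cycle genes, 19 cholesterol synthesis genes, 14 heat shock genes, 19 adhesion genes, 16 B cell genes or 13 mitochondrially encoded genes passed in edgeR. At an unadjusted p under 0.05 the counts in that order were 1, 0, 4, 0, 2, 0, 5, 0 and 0. With the batch block 1 marker of type 1 DCs was called higher and 1 lower, and 1 adhesion gene lower. A miss of the threshold does not show that these genes were equal. Among 15 tested markers of type 2 DCs, 3 were higher (Irf4, Epas1 and Clec10a), where 1.12% of all genes tested were.

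**Figure D4:**
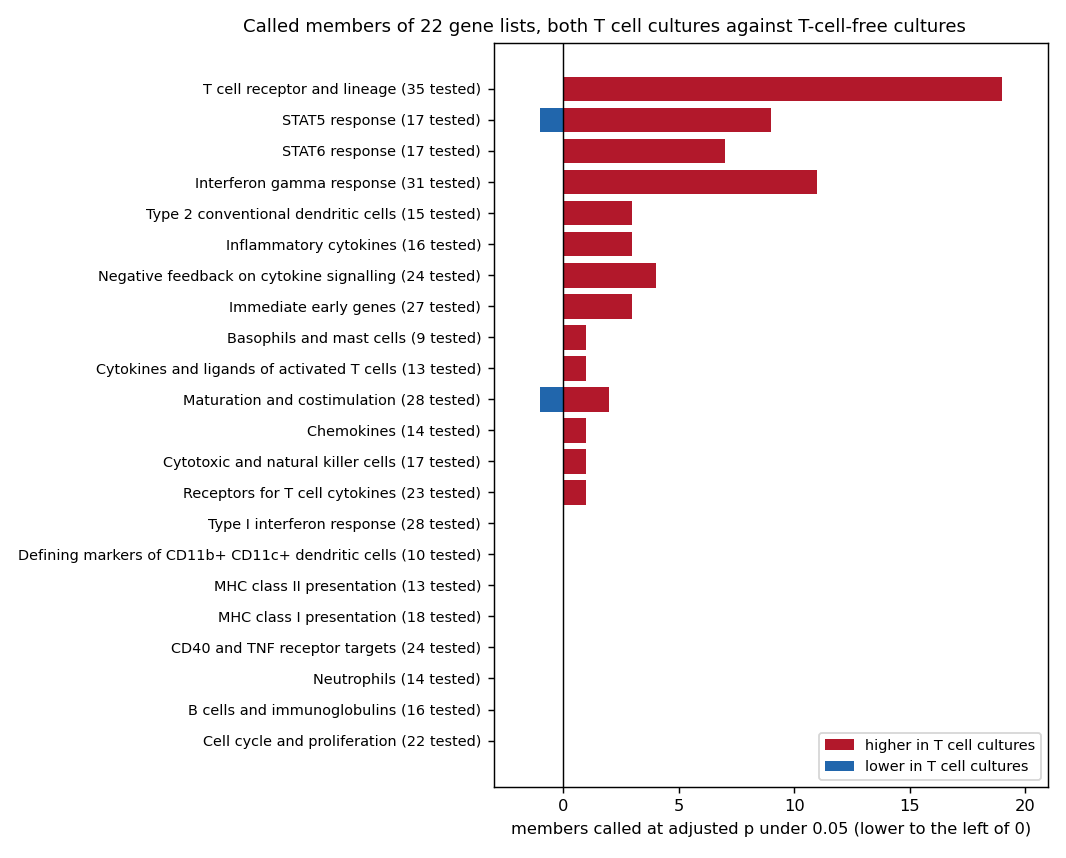
Number of called members (horizontal axis) in 22 of the 35 gene lists, higher in the T cell cultures to the right of 0 and lower to the left, with the number tested in brackets. Calls gather in the T cell, interferon gamma, STAT5 and STAT6 lists, with 19, 11, 9 and 7 higher members.

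The 2 T cell cultures did not contribute alike. Against the T-cell-free libraries, AlloTem alone gave 255 higher (1.77%) and 57 lower (0.395%) genes, 2.16% in all, and SynTem alone 82 higher (0.569%) and 7 lower (0.0486%), 0.617% in all. These comparisons share their T-cell-free libraries. Of the 162 rises, 28 were called in both cultures, 86 in AlloTem alone, 34 in SynTem alone and 14 in neither alone, and 160 were positive in both. Passing in 1 culture and not in the other does not show a difference. The direct test between AlloTem and SynTem called 22 higher (0.153%) and 2 lower (0.0139%) of all genes tested, 0.167% in all, and among the 162 it called 12 higher, 0 lower and left 150 uncalled. The list medians of the 2 cultures, each against the same T-cell-free libraries, stood as follows: the T cell list had 1.33 in AlloTem and 2.72 in SynTem, the STAT5 list 1.71 and 0.54, the STAT6 list 1.81 and 0.47, and the interferon gamma list 1.62 and 1.88.

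**Figure D5:**
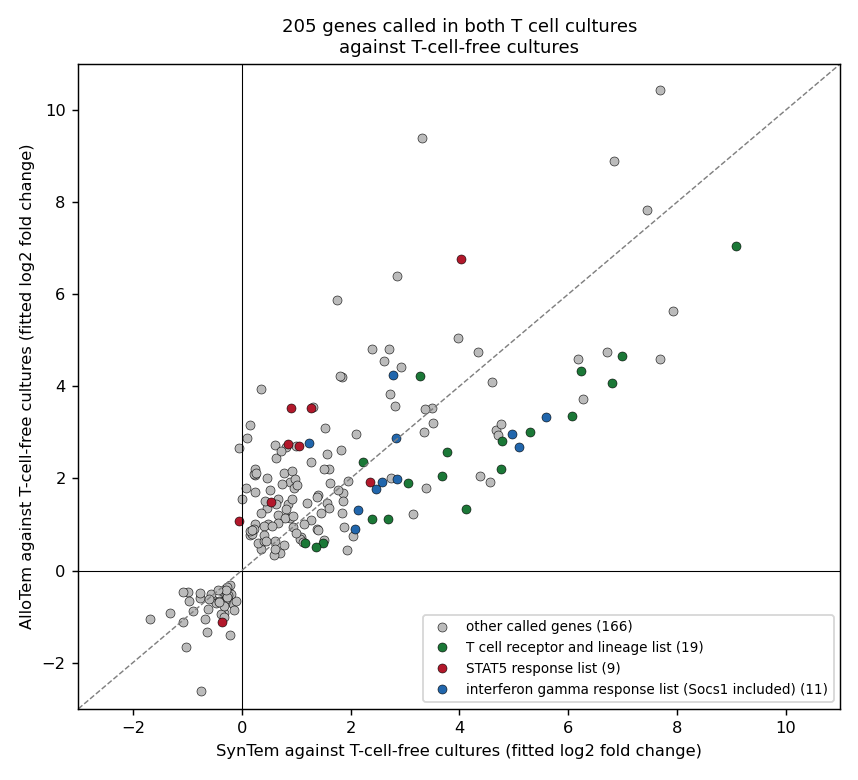
Fitted log2 fold change of the 205 called genes in AlloTem (vertical axis) and SynTem (horizontal axis), each against the same T-cell-free libraries, with a dashed line at equality. Of the called list members, 17 of 19 T cell genes lie below the line and 8 of 10 STAT5 genes, Socs1 included, above it. Fitted values of genes at 0 counts in a group depend on the prior count and are not bounds.

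The control side mattered as well. With DC only as the sole control group, all 162 rises kept their direction and 63 kept their call, and all 43 falls kept their direction and 18 their call. In total that contrast called 67 higher and 20 lower genes. Leaving out SynTem 2 and SynTem 3, the SynTem libraries rich in Y-linked transcripts, gave 28 higher and 1 lower gene, with the spread of the 1 remaining SynTem library taken from the other groups. Leaving out DC only 2 and SynTem 2 gave 29 and 4. Among the genes described above, Cish, Nfil3, Id1, Trac, Cd4, Lat, Bcl11b and Cd40lg were called in every alternative in which they were tested.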

How the data were processed

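RNA was sequenced in 12 libraries. The authors deposited raw counts per Ensembl gene identifier (57009) with no normalization, and a table of batch numbers, which match the replicate numbers in all 12. Per the labels, TruSeq libraries were read single-end on a NextSeq. The submitters' processing notes name mm10. Which aligner and counter were used, whether counting used strand, and from which annotation, is not given in the sources used here. GENCODE M21 (GRCm38) gave symbols, coordinates and exon overlaps for 52028 identifiers, and the other 4981 held 0.763% of counts. No per-sample column was left unmapped.

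Genes were filtered with filterByExpr (minimum count 10, minimum total 15), scaled by TMM and fitted in edgeR 4.0.16 (R 4.3.3) with 1 mean per group and robust quasi-likelihood dispersions. The Benjamini-Hochberg adjustment ran over 14413 genes, and a call is an adjusted p under 0.05. A standard error is the size of the log2 value over the root of its F statistic. Intervals and floors cover counting error only. Ratios within a batch used a pseudocount of 0.5 CPM. The script was tested on simulated counts.

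The comparison, the 35 gene lists (575 genes) and the tests were chosen with earlier results of these data known. Named genes are the 12 largest rises and 12 largest falls (mean of at least 5 CPM, no predicted, receptor-segment or immunoglobulin symbols), 24 genes of interest, and up to 3 called members per list (mean of at least 1 CPM) or, with none called, the one of smallest p. Other called list members, Cd8a, Ccl22, Il13, Tgtp2, Socs2 and the genes of the last section were chosen after their values were seen.

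Alternatives were RLE and upper-quartile scaling, other filters, DESeq2 1.42.0, limma 3.58.1 (voom), the batch block, 1 mean per side, DC only as the sole control group, a covariate of Y-linked transcripts, and libraries left out singly or in pairs. The pair SynTem 2 and SynTem 3, and thinning to the smallest total, were added after seeing the data. The deposited table calls the replicate number a batch without saying what a batch was. The batch enters only the alternative fit with the block (223 higher, 98 lower), and the main fit has none. Deviations from group means correlated with a median of 0.247 over 18 same-numbered pairs (12 above 0.1, range -0.249 to 0.632) and -0.201 over others, and for 10 of 12 libraries the best match had the same number. On summed Y-linked transcripts SynTem 2 (175 CPM) was unlike AlloTem 2, LPS 2 and DC only 2 (0 CPM each). Whether SynTem 2 belongs with batch 2 was not tested, and the block and the directions within batches take its number as given. The closest replicates were DC only 1 and DC only 2 (chi-square per degree of freedom 6.14, others 26.5 to 80.7) and still differed beyond sampling noise.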

Additional observations from a re-analysis of the deposited data

Results flagged for a closer look

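In 5 genes described above the 2 T cell cultures differed from each other when the difference itself was tested (AlloTem minus SynTem, edgeR quasi-likelihood test, Benjamini-Hochberg adjusted over 14413 genes, 3 libraries each). Ccl17 differed by a log2 fold change of 6.07 ± 0.72 SE (adjusted p = 0.0126), with 72.7, 190.0 and 66.05 CPM in AlloTem and 0.52, 1.77 and 2.49 CPM in SynTem. Ier3 differed by 2.72 ± 0.27 (adjusted p = 0.00456), Irf4 by 1.83 ± 0.16 (adjusted p = 0.00276), Nfil3 by 1.65 ± 0.21 (adjusted p = 0.0126) and Pim3 by 1.11 ± 0.15 (adjusted p = 0.0138). In each of the 5 all 3 AlloTem libraries were above all 3 SynTem libraries, so the value for both cultures together averages unequal responses. Leaving out SynTem libraries ended several of these calls. Without SynTem 2 and SynTem 3 none of the 5 was called (edgeR adjusted p = 0.340, 0.0898, 0.105, 0.122 and 0.456 for Ccl17, Ier3, Irf4, Nfil3 and Pim3), and without DC only 2 and SynTem 2 only Irf4 was. Without SynTem 2 alone Ccl17, Nfil3 and Pim3 each had an edgeR adjusted p of 0.101. Pim3 also lost its call without SynTem 3 (edgeR adjusted p = 0.0674) and Nfil3 without SynTem 1 (edgeR adjusted p = 0.0504), while Irf4 and Ier3 kept theirs in all 12 fits that left out 1 library.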

How the results depend on the processing

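Counts of called genes moved with the processing. Of the values of named genes under an alternative, 1650 kept direction and side of the threshold, 371 lost the call, 15 gained it and 30 turned sign. Those 30 came from 10 genes that were not called, and 0 came from the 47 called genes. The counts in the report were 162 higher and 43 lower in both cultures together, 312 in AlloTem and 89 in SynTem against the T-cell-free libraries, and 24 between AlloTem and SynTem. DESeq2 called 387 higher, 130 lower, 613, 330 and 318. The covariate of Y-linked transcripts gave 300 higher, 103 lower, 571 in AlloTem and 39 between the cultures. The replicate block gave 98 lower and 78 between the cultures. Without DC only 2 and SynTem 2 the counts were 29 higher, 4 lower, 142, 4 and 2, and the same with the replicate block 244 higher, 107 lower, 509 in AlloTem and 37 between the cultures. Without SynTem 2 and SynTem 3 they were 28 higher, 1 lower, 0 in SynTem (edgeR, 1386 at an unadjusted p under 0.05) and 1 between the cultures. With DC only as the sole control group they were 67 higher, 20 lower and 13 in SynTem. With 1 mean per side they were 76 higher and 17 lower. Limma voom called 96 higher and 47 in SynTem, the filter at a mean of 5 CPM 39 in SynTem, and no filter 41 between the cultures. Counts under RLE scaling, upper-quartile scaling and thinning stayed within 1.5 times of the main ones.

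Leaving out 1 library gave 53 to 170 higher, 13 to 48 lower, 135 to 321 in AlloTem, 14 to 149 in SynTem and 3 to 47 between the cultures. The higher count was below 108 without AlloTem 1 (97), DC only 1 (64), DC only 2 (53), LPS 2 (56), LPS 3 (67) or SynTem 3 (71). The lower count was 18, 13, 13, 15, 16 and 15 without the same 6 libraries and 23 without SynTem 2. Of 162 rises 48, and of 43 falls 13, were called in all 12 such fits. The cause of these moves was not tested. The replicate block ended 2 of the 47 calls of named genes, Gzmc and Cpa3 and among other described genes those of Gbp2 and Gbp7.

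The values that turned sign were log2 fold changes of -0.26 for Csf2, -0.0658 for Ciita and -0.72 for Uty without SynTem 2 and SynTem 3. Without DC only 2 and SynTem 2 they were -0.0702 for Ciita and -0.0598 for Uty, and with the replicate block as well -0.0660 for Ciita. With DC only as the sole control group they were 0.20 for Tnf and -0.0402 for Ciita, by limma voom -0.0150 for Cd40 and -0.13 for Il1b, and with the replicate block -0.0507 for Il1b. With 1 library left out the log2 fold change ranged between -0.38 and 0.76 for Xcl1, -0.29 and 0.22 for Cd40, -0.0789 and 0.39 for Cd80, -0.0048 and 0.33 for Cd86, -0.16 and 0.43 for Ccr7, -0.55 and 0.22 for Il1b, -0.0816 and 0.14 for Ciita, and -1.70 and 5.47 for Uty.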

Other observations

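Other rises included receptors of T cells. Ccr4, the receptor of the chemokine Ccl17, was at 1.57, 0.893 and 1.65 CPM in AlloTem and 0.595, 6.4 and 5.28 in SynTem, against 0.314, 0 and 0.056 in LPS and 0, 0 and 0.049 in DC only, with no overlap (log2 fold change 5.39 ± 0.83 SE, edgeR adjusted p = 0.0128). Its call was lost without DC only 1 or DC only 2 (edgeR adjusted p = 0.0501 to 0.0553). Izumo1r, the folate receptor 4 of helper and regulatory T cells, was at 0.76, 0.397 and 0.708 CPM in AlloTem and 2.53, 7.16 and 6.34 in SynTem, against 0, 0 and 0.056 in LPS and 0, 0 and 0.049 in DC only (log2 fold change 6.14 ± 0.61 SE, edgeR adjusted p = 0.00213), highest in SynTem and called in every alternative in which it was tested.

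Regulators of cytokine responses also changed. Arid5a, an RNA-binding protein that stabilises cytokine transcripts, was at 192, 375 and 264 CPM in AlloTem and 90.4, 109 and 176 in SynTem, against 80.6, 75.5 and 81.1 in LPS and 77.7, 71.1 and 63.8 in DC only (log2 fold change 1.31 ± 0.19 SE, edgeR adjusted p = 0.00944), and Ahr, the aryl hydrocarbon receptor, at 105, 201 and 152 CPM in AlloTem and 70.4, 64.2 and 60.4 in SynTem, against 48.5, 55.8 and 40.3 in LPS and 36.5, 38.8 and 53.8 in DC only (log2 fold change 1.13 ± 0.16 SE, edgeR adjusted p = 0.00944). Both separated the sides. Jak3, the kinase of the common gamma chain, was at 70.2, 73.4 and 60.3 CPM in AlloTem and 73.0, 85.4 and 81.5 in SynTem, against 58.2, 53.1 and 38.6 in LPS and 50.5, 41.9 and 37.5 in DC only (log2 fold change 0.67 ± 0.11 SE, edgeR adjusted p = 0.0197). Il6st, which encodes gp130, the shared receptor chain of interleukin 6, LIF and oncostatin M, was at 298, 273 and 352 CPM in AlloTem and 464, 476 and 428 in SynTem, against 464, 564 and 542 in LPS and 682, 721 and 619 in DC only and fell (log2 fold change -0.67 ± 0.08 SE, edgeR adjusted p = 0.00369), with AlloTem below every other library and SynTem 2 above LPS 1. Arid5a, Ahr and Il6st stayed called whichever 1 library was left out, and Jak3 did not without DC only 2, LPS 2 or SynTem 3 (edgeR adjusted p = 0.0525 to 0.0718). Without SynTem 2 and SynTem 3 none of the 4 was called (edgeR adjusted p = 0.0624, 0.0757, 0.0728 and 0.193).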
